A study of Mus musculus with 2 samples.

Results

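Killer lectin-like receptors are cell-surface receptors encoded side by side in the natural killer gene complex of the mouse. Transcripts of 6 such genes (Klrd1, Klrk1, Klri2, Klrb1c, Klre1 and Klrc1) were followed in 7815 CD45+ leukocytes from 2 melanomas, among 12584 measured genes. All 6 were present in the matrix. They had been chosen from an earlier comparison of 2 of the authors' cell populations, the lymphocytes labelled NK_cells and the dendritic cells labelled cDC2, so their values in that comparison are a description and not a finding. The tumours came from YUMM3.3, a mouse melanoma line with mutant Braf and no Cdkn2a, grown under the skin of C57BL/6 mice and taken on day 12. NTT was the therapy-naive line and RTT its derivative made resistant to BRAF inhibition, which was kept in dabrafenib while in culture. The labels name no drug given to the mice. The live CD45+ cells of 1 tumour of each kind were sorted and sequenced, 1 library per tumour, so in every NTT and RTT comparison the line, the mouse, the sort and the library cannot be told apart. There was no replicate, no test was possible, and every interval covers counting error only.

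As background, Klrd1 encodes CD94, which pairs with NKG2A (Klrc1) into an inhibitory receptor for the non-classical MHC molecule Qa-1 (H2-T23). Klrk1 encodes NKG2D, an activating receptor that binds stress-induced ligands of the RAE-1, H60 and MULT1 families and signals through the adaptors DAP10 (Hcst) and, in mice, DAP12 (Tyrobp). The product of Klre1 pairs with those of Klri1 or Klri2, giving inhibitory or activating complexes, and Klrb1c encodes NK1.1, the surface protein by which natural killer (NK) cells of C57BL/6 mice are recognised. All of these are best known from NK cells and activated CD8 T cells.

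All 6 genes lay within 962 kb of mouse chromosome 6 in the GENCODE annotation of GRCm38, the build of the authors' mm10 reference. Klre1 (chr6:129577905-129585827, plus strand) was followed by Klrd1 (chr6:129591782-129598775, plus), Klrk1 (chr6:129610323-129623864, minus), Klrc1 (chr6:129666015-129678973, minus) and Klri2 (chr6:129729041-129740484, minus). Klrb1c (chr6:128778485-128789215, minus) lay apart from these 5, and shared exons on its own strand with Gm44511, which also shares exons with the neighbouring Klrb1b and was not among the measured genes. RefSeq promoter windows, from 250 bases before to 50 bases after a transcript start (GRCm38.p6), were held for 4 of the 6 genes and not for Klrd1 or Klri2. The windows of Klrk1 and Klrc1 are shown because Klrk1 was found across lymphocytes, dendritic cells and monocytes and Klrc1 almost only in lymphocytes. Capitals mark the only match in each to TGTGGT, read on either strand, a short form of the site bound by RUNX factors of lymphocytes. Each is printed 5′ to 3′ in the sense of its gene, from chr6:129623815-129624114 and chr6:129678924-129679223, both on the minus strand.
Klrk1: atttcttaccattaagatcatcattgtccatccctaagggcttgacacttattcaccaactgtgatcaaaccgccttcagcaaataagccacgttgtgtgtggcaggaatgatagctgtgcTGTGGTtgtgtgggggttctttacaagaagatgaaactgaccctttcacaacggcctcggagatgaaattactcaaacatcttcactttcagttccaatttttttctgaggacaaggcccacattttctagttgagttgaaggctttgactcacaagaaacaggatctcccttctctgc
Klrc1: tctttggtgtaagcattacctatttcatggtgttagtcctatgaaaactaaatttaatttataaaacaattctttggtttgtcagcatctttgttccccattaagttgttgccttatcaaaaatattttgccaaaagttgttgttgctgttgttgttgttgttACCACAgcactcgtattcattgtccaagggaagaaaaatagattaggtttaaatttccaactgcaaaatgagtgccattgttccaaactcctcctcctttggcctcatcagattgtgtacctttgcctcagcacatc
Klrb1c and the first of 2 windows of Klre1 also held 1 match each, and the second Klre1 window held 0. Over all 32851 windows, 16.8% held these letters on either strand. None of the 4 genes' windows held the T-box letters AGGTGT (13.7% of all windows), and Klrb1c alone held the ETS letters GGAAGT (23.8%), once. A match describes the letters only, and no binding was measured.

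The NTT library held 2975 cells with 19634099 unique molecular identifiers (UMIs, 1 per captured transcript). RTT contributed 4840 cells with 44712071 UMIs. NK_cells made up 178 NTT cells (5.98%) and 51 RTT cells (1.05%), with a median of 5358.5 and 3967 UMIs per cell. The cDC2 label covered 279 and 413 cells, with medians of 5874 and 5861 UMIs. Of all barcodes, 7 occurred in both libraries, 2 of them in cells of these labels. Levels are given as CPM, the gene's UMIs per 1000000 UMIs of a population, with both summed over its cells. As each molecule was counted once, transcript length does not enter.

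The NK_cells label went against its markers in most cells. At least 2 UMIs of Cd3d, Cd3e or Cd3g were found in 151 of its 178 NTT cells and 45 of its 51 RTT cells. These genes encode the CD3 chains of the T cell receptor complex. Cd8a stood at 732 CPM in NTT and 404 CPM in RTT. NK_cells is therefore used here as a label and not as a cell type. The cDC2 label held UMIs of all 14 listed cDC2 markers in both libraries, but their shares of cells ranged widely. H2-Ab1 was found in 96.1% of NTT and 99.3% of RTT cDC2, and also in 100% of cDC1. Cd209a was found in 39.4% and 73.6% of cDC2, Mgl2 in 17.6% and 83.8% and Flt3 in 31.5% and 18.9%. Zbtb46 was found in 14.7% and 21.1% of cDC2 and Irf4 in 8.24% and 11.6%. NK cell markers summed to 29.3 CPM there in NTT and 2.74 CPM in RTT, against 13215 and 6908 CPM in NK_cells, and in RTT 7 of the 12 were at 0. The plasmacytoid marker Siglech was found in 12.9% of NTT and 3.63% of RTT cDC2. RTT NK_cells carried more macrophage RNA than NTT NK_cells, with a sum over 8 markers of 4516 against 744 CPM. In cDC2 the same 8 markers summed to 2195 CPM in NTT and 2221 CPM in RTT. Of these, Fcgr1 was found in 66.7% and 57.9% of cDC2, Csf1r in 53.8% and 67.3% and Adgre1 in 6.81% and 12.8%. T cell markers summed to 117 CPM in NTT and 39.5 CPM in RTT cDC2, with 0 and 4 of 13 at 0. Where such cells were left out, the value is given beside the result, and otherwise their part was not tested.

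Klrd1, the shared CD94 chain, was the most abundant of the 6 genes and was highest in cDC2 rather than in NK_cells. In NTT it stood at 1660.2 CPM in cDC2 (95% interval 1599.6 to 1722.5; 2832 UMIs) and 1187 CPM in NK_cells (1129 to 1247; 1575 UMIs). In RTT the levels were 862 CPM in cDC2 (827 to 899) and 477 CPM in NK_cells (409 to 553). The genes were chosen with this contrast, so the order of the 2 labels is a description. Most NK_cells carried Cd3, and the 25 NTT cells of the label without a Cd3 UMI held 2146 CPM. DC3, the dendritic cells with genes of maturation such as Ccr7 and Fscn1, held 464 CPM in NTT and 88.3 CPM in RTT, and cDC1 held 232 and 96.8 CPM. Monocytes and macrophages were far lower, with 10.9 and 9.51 CPM in Monocyte_1 and 1.54 CPM in RTT TAM_C1q, the largest macrophage population. Thus cDC2 contributed 56.1% of all Klrd1 UMIs in NTT and 81.2% in RTT, and NK_cells 31.2% and 6.48%.

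Most cDC2 carried Klrd1, and the level was not set by a few cells. A UMI was found in 221 of 279 NTT cDC2 (79.2%) and 351 of 413 RTT cDC2 (85.0%), with a median of 5 and 4 and a highest value of 78 and 32 UMIs per cell. To compare shares at one depth, each cell was thinned to 2000 UMIs, and shallower cells were left out (9 cDC2 in each library, 14 NTT and 10 RTT NK_cells). At that depth 73.0% of NTT and 67.3% of RTT cDC2 had a Klrd1 UMI. In TAM_C1q and TAM_Spp1, macrophages that should lack the gene, the thinned RTT shares were 0.201% and 1.85%. Before thinning, these macrophages had medians of 8596 and 5351 UMIs and cDC2 5861, so the cDC2 shares lay above this background at like depth.

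**Figure D1:**
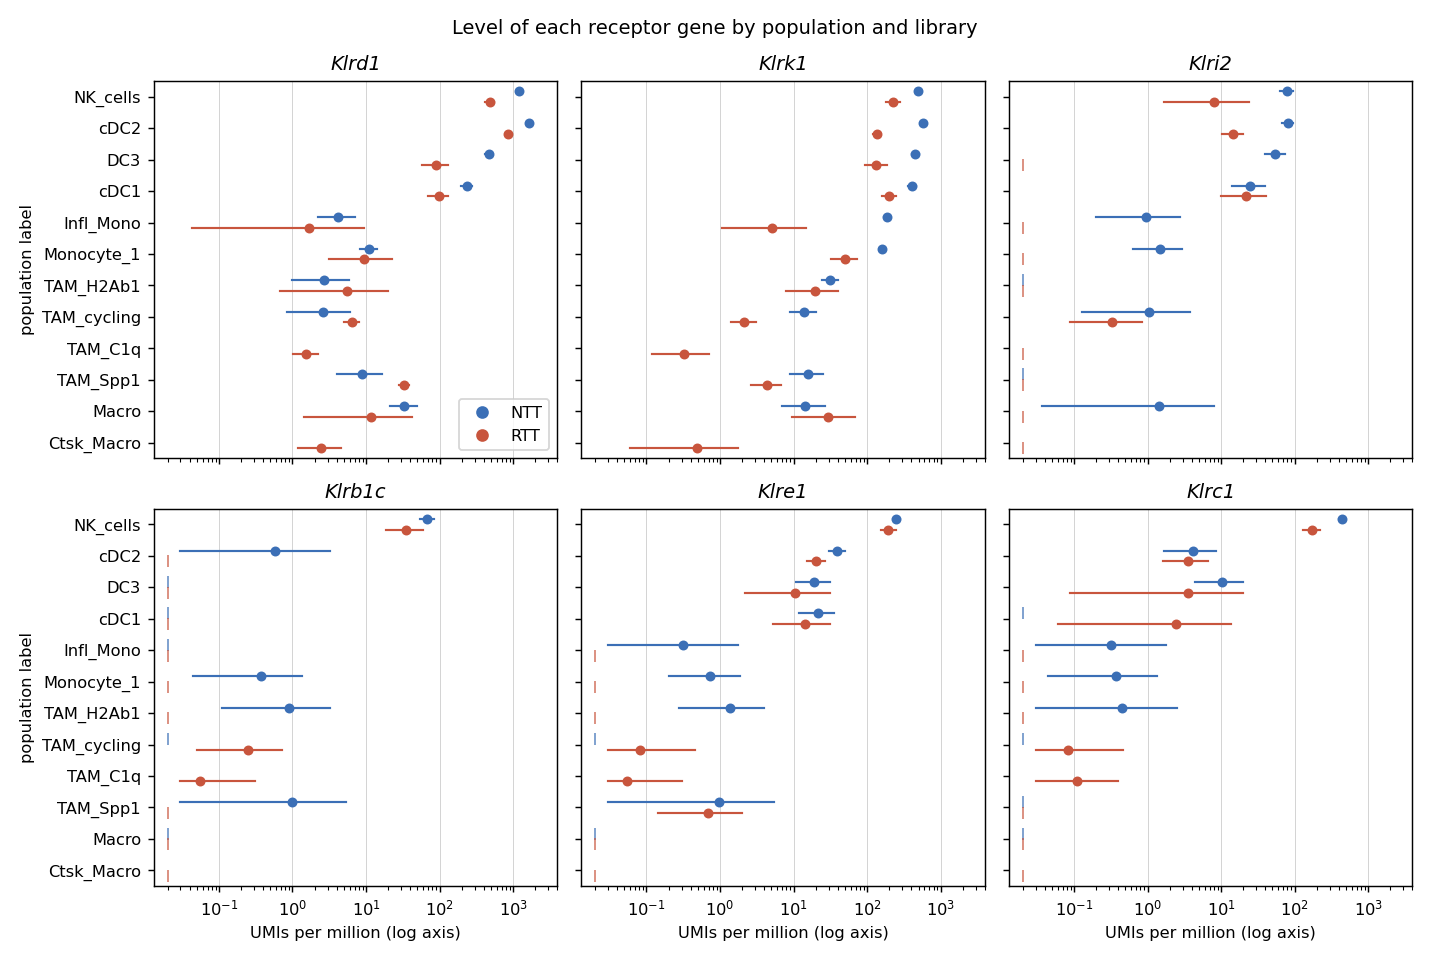
Level of each of the 6 genes in CPM (log axis) in selected populations with at least 20 cells in a library, NTT in blue and RTT in red. Neutro and Myofibrobl are not shown. Points are sums over cells, lines are exact Poisson 95% intervals (cut at 0.03), and short vertical ticks at the left edge mark a count of 0. Klrd1, Klrk1 and Klre1 are seen in cDC2, DC3 and cDC1 of both tumours, as is Klri2 except in RTT DC3 (0 UMIs), Klrb1c and Klrc1 sit almost wholly in NK_cells, and only Klrk1 reaches above 100 CPM in NTT monocytes.

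Klrc1, the NKG2A partner of CD94, showed a different distribution. It stood at 438 CPM in NTT NK_cells (581 UMIs, 403 to 475 CPM) and 171 CPM in RTT NK_cells (63 UMIs, 131 to 219 CPM). In cDC2 it was at 4.10 CPM (7 UMIs) and 3.52 CPM (9 UMIs), and in NTT DC3 at 10.1 CPM (8 UMIs). NK_cells thus held 96.8% of all NTT and 81.8% of all RTT Klrc1 UMIs. The 2 chains of the receptor were detected together in NK_cells, where 97 of the 106 NTT cells with Klrc1 also had Klrd1 (91.5%), as did 11 of 12 in RTT. Among cDC2 with Klrd1, Klrc1 was detected in 5 of 221 NTT cells (2.26%) and 6 of 351 RTT cells (1.71%).

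The lymphocyte genes measured beside Klrd1 differed between the labels. For every 100 Klrd1 UMIs, NTT NK_cells held 36.9 UMIs of Klrc1, 422 of granzyme B (Gzmb) and 291 of Nkg7, a cytotoxic granule gene. NTT cDC2 held 0.247, 0.247 and 0.177 UMIs of the same genes. RTT cDC2 held 0.408 Klrc1 UMIs per 100 Klrd1 UMIs and no Gzmb UMI (upper limit 0.167), against 35.8 and 511 in RTT NK_cells.

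Klrk1, which encodes NKG2D, had the broadest distribution. In NTT it stood at 582 CPM in cDC2 (993 UMIs), 496 CPM in NK_cells (658 UMIs), 454 CPM in DC3 and 407 CPM in cDC1. The interval of cDC2 was 546 to 619.5, and its order against NK_cells is a description, since the genes were chosen with that contrast. The intervals of NK_cells (459 to 535) and DC3 (408 to 503) overlapped, and so did those of DC3 and cDC1 (359 to 459). It was also found in NTT monocytes, at 185 CPM in Infl_Mono (583 UMIs in 249 of 620 cells) and 161 CPM in Monocyte_1 (870 UMIs in 442 of 984 cells). Monocyte_1 contributed 22.4% of all NTT Klrk1 UMIs, nearly as many as cDC2 (25.6%), while Klrd1 reached only 4.14 CPM in Infl_Mono and 10.9 CPM in Monocyte_1. In RTT the order changed, with 225 CPM in NK_cells, 199 CPM in cDC1, 135 CPM in cDC2, 134 CPM in DC3 and 49.5 CPM in Monocyte_1. The RTT intervals of NK_cells and cDC1 overlapped, as did those of cDC2 and DC3. RTT Infl_Mono held 3 UMIs in 94 cells (5.09 CPM) and RTT TAM_C1q 6 UMIs in 2001 cells (0.329 CPM).

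The products of Klre1 and Klri2 form one receptor. Klre1 was higher in NK_cells than in cDC2 in both libraries, while the Klri2 intervals of these labels overlapped. The genes were chosen with this contrast, so it is a description. Klre1 stood at 250.2 CPM in NTT and 195 CPM in RTT NK_cells (332 and 72 UMIs), and at 39.3 and 20.3 CPM in cDC2 (67 and 52 UMIs). Klri2 stood at 80.3 CPM in NTT cDC2 (137 UMIs) and 77.6 CPM in NTT NK_cells (103 UMIs), which did not differ beyond their intervals. It was at 54.5 CPM in NTT DC3 and 24.5 CPM in NTT cDC1, and in RTT at 14.5 CPM in cDC2 (37 UMIs), 21.8 CPM in cDC1 (9 UMIs) and 8.14 CPM in NK_cells (3 UMIs). No Klri2 UMI was found in 57 RTT DC3, where 3 UMIs would be 10.6 CPM. Both genes were found together in 35 of the 46 NTT NK_cells with Klri2 and in 27 of the 82 NTT cDC2 with Klri2. Klri1, the alternative partner of Klre1 and a close paralogue of Klri2, had 25 and 62 UMIs in NTT and RTT cDC2 and only 1 and 0 in NK_cells. Reads that match paralogues such as Klri1 and Klri2, Klrc1 and Klrc3, or the Klrb1 genes alike may be lost or misassigned in the counting. The same holds for reads in exons that Klrb1c and Klrb1b share with Gm44511. How many were affected was not tested.

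Klrb1c, encoding NK1.1, was the rarest. It stood at 67.8 CPM in NTT NK_cells (90 UMIs in 24 cells) and 35.3 CPM in RTT NK_cells (13 UMIs in 4 cells). Among 279 NTT and 413 RTT cDC2, 1 UMI and 0 UMIs were found. A count of 0 of 413 cells allows a share of up to 0.889% with a UMI. In all other populations of both libraries, its UMIs numbered between 0 and 3.

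Set against each other, NK_cells and cDC2 divided the 6 genes into 2 groups. The contrast is the one by which the genes were chosen, so nothing is read from the counts. In NTT, 3 of the 6 genes were at least 2-fold higher in NK_cells, where 28.3% of 8732 tested genes (at least 20 UMIs over both labels) were, and 0 were 2-fold higher in cDC2 (12.6% of genes). These 3 were Klrc1 (log2 difference 6.74, 5.69 to 8.06), Klrb1c (6.85, from 1 UMI in cDC2) and Klre1 (2.67, 2.29 to 3.07). Klrd1 was lower in NK_cells by a log2 difference of -0.48 (-0.57 to -0.39), Klrk1 by -0.23 (-0.38 to -0.09), and Klri2 was at -0.05 (-0.43 to 0.33). In RTT, 2 of 5 tested members were at least 2-fold higher in NK_cells (19.3% of 8237 genes) and 0 in cDC2 (13.4%), namely Klrc1 at 5.60 and Klre1 at 3.26. Klrb1c, with 13 UMIs too few for the filter, was 30.1-fold higher in RTT NK_cells with the 0 of cDC2 set to 3 UMIs. The exact lower limit of its log2 difference was 4.40. Klrd1 was at -0.85 (-1.08 to -0.63), Klri2 at -0.83 (-3.17 to 0.83), and Klrk1 at 0.74 (0.38 to 1.09), on the other side of 0 from NTT. The sign of Klrk1 depended on the summary, since it was 0.11 in NTT as a mean of per-cell CPM and -0.060 in RTT with cells thinned to 2000 UMIs. The median over all tested genes was 0.46 in NTT and 0.26 in RTT, and scaling by trimmed means (TMM) shifted every value by -0.43 and -0.28 (log2), so relative to the typical gene Klrd1 was further below and Klrk1 in RTT less far above.

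The share of T cells within the NK_cells label bore directly on these values. The 25 NTT cells with no Cd3 UMI, 14.0% of the label, held Ncr1, the NKp46 gene of NK cells, at 799 CPM and no Cd8a UMI. In them Klrd1 stood at 2146 CPM, Klrk1 at 1535 CPM, Klre1 at 997 CPM, Klrb1c at 727 CPM, Klrc1 at 620 CPM and Klri2 at 386 CPM. The 151 cells with at least 2 Cd3 UMIs held 1099 CPM of Klrd1, 421 of Klrc1, 401 of Klrk1, 182 of Klre1, 49.5 of Klri2 and 7.43 of Klrb1c. Every one of the 6 genes was therefore higher in the cells without Cd3, from a log2 difference of 0.56 for Klrc1 (0.17 to 0.92) to 6.61 for Klrb1c (5.62 to 7.79). Of the 90 Klrb1c UMIs, 81 fell in the 25 cells without Cd3. Against cDC2, the cells without Cd3 held a higher CPM of all 6, including Klrd1 (0.37, 0.17 to 0.56), Klrk1 (1.40, 1.16 to 1.63) and Klri2 (2.27, 1.74 to 2.77). The median over all genes is not given for this contrast. For the whole label over cDC2 it was 0.46 in NTT, above the 0.37 of Klrd1, so Klrd1 is not called higher than the typical gene. In RTT only 5 NK_cells lacked Cd3 UMIs, 2 of them with C1qa, a macrophage gene. These 5 held 34 Klrd1 UMIs (1073 CPM), 13 of Klre1, 11 of Klrb1c, 9 of Klrk1, 6 of Klrc1 and 1 of Klri2.

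**Figure D2:**
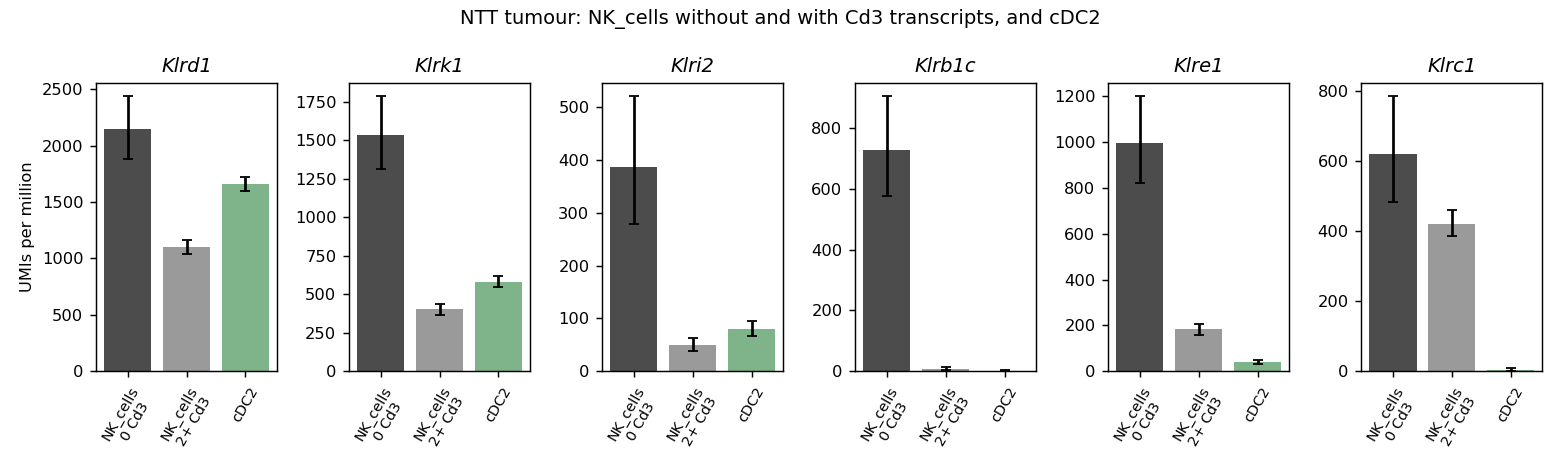
Levels of the 6 genes in the NTT tumour, in CPM on linear axes from 0, for the 25 NK_cells without a Cd3 UMI (dark), the 151 with at least 2 Cd3 UMIs (light) and the 279 cDC2 (green). Error bars are exact Poisson 95% intervals. Klrd1, Klrk1 and Klri2 are higher in cDC2 than in the Cd3-positive lymphocytes, whereas Klrc1 and Klre1 are higher in those lymphocytes than in cDC2.

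The NTT and RTT tumours were then compared within each label. In NK_cells, 4 of the 6 genes were at least 2-fold lower in RTT (13.2% of 7767 tested genes), and 0 were 2-fold higher (5.25%). The median log2 difference of the 6 was -1.23, against -0.11 over all tested genes. Klri2 had the largest difference, -3.25 (-5.56 to -1.67, 3 RTT UMIs), followed by Klrc1 (-1.36, -1.76 to -0.98), Klrd1 (-1.31, -1.55 to -1.09) and Klrk1 (-1.14, -1.49 to -0.81). Klrb1c was at -0.94 (-1.91 to -0.10), and Klre1 at -0.36, with an interval that reached 0 (-0.75 to 0.01). The Klre1 value depended on single cells, since 1 RTT cell held 28 of its 72 UMIs (38.9%), and it was -1.21 as a mean of per-cell CPM and -1.37 (-2.42 to -0.48) with cells thinned to 2000 UMIs. Within the cells with at least 2 Cd3 UMIs, intervals also lay below 0 for Klrd1 (-1.36), Klrc1 (-1.27), Klrk1 (-0.86) and Klri2 (-3.01, 2 RTT UMIs), and Klre1 there was at -0.11 (-0.57 to 0.32). With the macrophage-gene cells (C1qa of at least 1000 CPM) left out of NK_cells, 5 of the 6 were at least 2-fold lower in RTT. The share over all genes is not given for that set of cells, so nothing is read from the count. RTT NK_cells with both Klrd1 and Klrc1 had a median of 13459 UMIs and those with neither 3099, and 17 of the 51 cells held all 176 Klrd1 UMIs.

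Klrd1 was detected in fewer RTT NK_cells also at equal depth, in 29.3% against 62.2% in NTT, a difference of -32.9 percentage points (-46.6 to -15.9). Klrc1 was detected in 14.6% against 47.0%, and Klrk1 in 26.8% against 45.1%. At least 3 of the 6 genes were found in 107 of 178 NTT (60.1%) and 14 of 51 RTT NK_cells (27.5%), before thinning.

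In cDC2, 2 of the 4 tested genes were at least 2-fold lower in RTT (8.59% of 8618 genes), and 0 were 2-fold higher (9.61%). These were Klrk1 (-2.11, -2.29 to -1.94) and Klri2 (-2.47, -3.04 to -1.94). Klrd1 (-0.95, -1.03 to -0.86) and Klre1 (-0.95, -1.50 to -0.41) lay just short of the 2-fold limit, and both passed it under TMM scaling, which gave 4 of 4. The share over all genes is not given under that scaling. The intervals of Klrk1 and Klrd1 did not overlap, the difference being larger for Klrk1. At equal depth the share of cDC2 with a Klrk1 UMI was 59.3% in NTT and 20.3% in RTT, a difference of -39.0 percentage points (-45.7 to -31.7). For Klrd1 the difference was -5.64 points, with an interval that included 0 (-12.5 to 1.47). Of cDC2 with Klrd1, 158 of 351 RTT cells also had Klrk1 (45.0%), against 183 of 221 in NTT (82.8%).

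**Figure D3:**
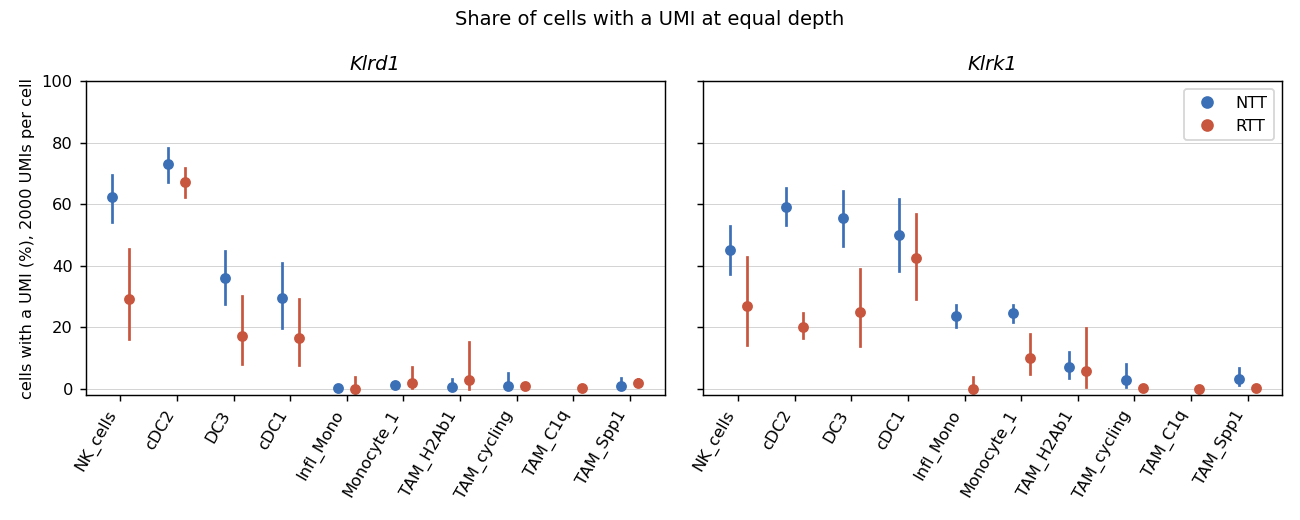
Percentage of cells with at least 1 UMI of Klrd1 (left) and Klrk1 (right) after thinning each cell to 2000 UMIs, for NTT (blue) and RTT (red) in selected populations with at least 20 such cells. Neutro, Macro, Ctsk_Macro and Myofibrobl are not shown. Lines are exact Clopper-Pearson 95% intervals. Klrd1 is at 73.0% and 67.3% in cDC2, while Klrk1 is at 59.3% and 20.3% in cDC2 and at 23.6% and 0% in Infl_Mono.

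The cDC2 label did not cover like cells in both tumours. Cells with a UMI of Siglech, Ccr9 or Ly6d, genes of plasmacytoid dendritic cells, made up 40 of 279 NTT and 15 of 413 RTT cDC2. Cells with none of these and a UMI of Cd209a, Mgl2 or Clec10a, genes of type 2 dendritic cells, numbered 147 and 389, and cells with neither 92 and 9. The grouping was set after these values were seen. Within the 147 and 389 cells, Klrd1 went from 1669 to 867 CPM (log2 difference -0.94), Klrk1 from 521 to 133 CPM (-1.97), Klri2 from 63.9 to 14.4 CPM (-2.16) and Klre1 from 37.3 to 20.1 CPM (-0.89). This group holds 94.2% of RTT cDC2 and is itself defined by a gene that differed, so its cells are not alike in both tumours. Inside it Mgl2 differed by 2.02, Mki67, a gene of cycling cells, by 2.37 and C1qa by 1.23, while Bst2, an interferon-induced gene, differed by -1.67 and Lyz2 by -1.65. The part of these differences in the receptor values was not tested. The 92 NTT cells with neither set held the highest levels of Klrd1 (1836 CPM), Klrk1 (767 CPM) and Klri2 (129 CPM), and 100% of them had H2-Ab1. Klrd1 was at 1155 CPM in the 40 NTT cells with plasmacytoid genes.

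cDC2 with Klrd1 were also compared with cDC2 without it, at equal depth (197 and 73 NTT cells, 272 and 132 RTT cells). Lymphocyte transcripts (Nkg7, granzymes, Ncr1, Prf1 or Cd3 chains) were seen before thinning in 16 of the 197 NTT cells with Klrd1 (8.12%) and 9 of the 73 without (12.3%), and in RTT in 3 (1.10%) and 2 (1.52%). The difference was -4.21 percentage points in NTT (-14.2 to 3.16) and -0.41 in RTT (-4.32 to 1.95), and both intervals included 0. Those with Klrd1 held less of the macrophage genes Lyz2 (log2 difference -2.22 in NTT and -2.12 in RTT) and C1qa (-1.49 and -2.20), and more Klrk1 (0.63 and 1.17). H2-Ab1 differed by 0.25 and 0.00, and Napsa, an aspartic protease gene of dendritic cells, by 0.35 in both. Cd209a was lower in NTT cells with Klrd1 (-0.59, -0.89 to -0.29) and at 0.19 in RTT (-0.01 to 0.40). Siglech went in opposite directions, at -1.59 in NTT and 1.39 in RTT.

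Outside these labels the differences between tumours were as follows. Klrk1 was lower in RTT in DC3 (-1.76, -2.28 to -1.27), cDC1 (-1.03, -1.41 to -0.67), Monocyte_1 (-1.70, -2.32 to -1.14), TAM_cycling (-2.68) and TAM_Spp1 (-1.84). In Infl_Mono it was 36.4-fold lower (log2 -5.19, -7.47 to -3.63, from 583 UMIs to 3), and the thinned share was 23.6% in NTT and 0 of 92 cells in RTT (upper limit 3.93%). Thus in all 8 populations that had 20 Klrk1 UMIs and no fewer than 50 cells per library, its interval lay below 0. Among smaller populations, TAM_H2Ab1 (-0.71, -2.08 to 0.41) and Macro (1.03, -0.87 to 2.71) had intervals that included 0. Klrd1 was lower in DC3 (-2.39, -3.04 to -1.81) and cDC1 (-1.26, -1.80 to -0.75), but in Monocyte_1 the interval included 0 (-0.20, -1.87 to 1.11). In TAM_Spp1 Klrd1 was higher in RTT, by 1.91 (0.94 to 3.06), from 9 to 143 UMIs, and in TAM_cycling it was at 1.28 with an interval that reached 0. In DC3 Klri2 went from 43 UMIs to 0, which is 5.15-fold lower with the 0 set to 3 UMIs. In cDC1 Klri2 was at -0.17 (-1.53 to 1.10).

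**Figure D4:**
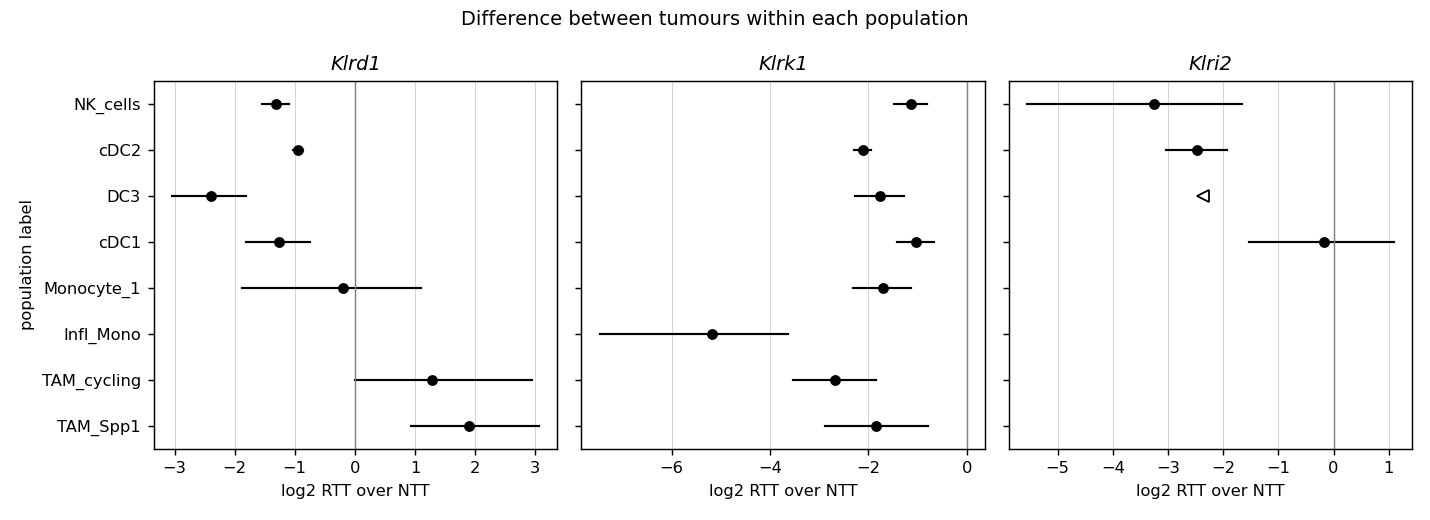
Log2 of the RTT level over the NTT level of Klrd1, Klrk1 and Klri2 within each population that had 20 UMIs of the gene over both libraries and no fewer than 50 cells per library. Points are ratios of summed CPM, lines are exact 95% intervals from the pair of counts, and the open triangle marks an upper bound from a count of 0. Klrk1 lies below 0 in all 8 populations shown, whereas Klrd1 lies below 0 in lymphocytes and dendritic cells and above 0 in TAM_Spp1.

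The TAM_Spp1 value rested on few cells, and at equal depth the share of cells with Klrd1 differed by 0.80 percentage points, with an interval that included 0 (-1.99 to 2.30). Of its 143 RTT Klrd1 UMIs, 98 came from 11 of 719 cells, each with at least 5. Over all populations other than NK_cells and dendritic cells, 21 cells had at least 5 Klrd1 UMIs and 9 of them (42.9%) had a UMI of Flt3, a dendritic cell gene, against 0.898% of all such cells. Cd209a was found in 10 of the 21 (47.6%), against 2.31%.

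Over all sorted cells, all 6 genes were at least 2-fold lower in RTT (14.2% of 11623 genes), and 0 were higher by 2-fold (10.5%), with a median log2 difference of -3.70 against 0.06 over all genes. The differences ran from Klrd1 (-2.08, 257 to 60.7 CPM) through Klre1 (-2.85), Klrb1c (-3.68), Klri2 (-3.72) and Klrk1 (-3.79, 198 to 14.3 CPM) to Klrc1 (-4.15, 30.6 to 1.72 CPM). NK_cells made up 5.98% of NTT and 1.05% of RTT cells, and these sums do not separate cell numbers from levels.

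The adaptors that these receptors signal through were next taken from a list of 19 signalling genes. In NK_cells 1 of 19 tested genes was at least 2-fold lower in RTT (13.2% of all genes) and 1 higher (5.25%), with a median of -0.20. In cDC2 0 of 13 were lower (8.59%) and 1 higher (9.61%), with a median of -0.26. Tyrobp stood at 504 and 759 CPM in NTT and RTT NK_cells and at 3868 and 4099 CPM in cDC2. Hcst, the partner of NKG2D, stood at 611 and 385 CPM in NK_cells and was lower in cDC2, at 76.8 and 64.1 CPM. Fcer1g, another signalling chain, stood at 691 and 1253 CPM in NK_cells and 5249 and 4018 CPM in cDC2. In NK_cells with at least 2 Cd3 UMIs, Tyrobp stood at 213 and 484 CPM, with a UMI in 38.4% and 24.4% of cells. RTT NK_cells carried more macrophage RNA (8 markers at 4516 CPM, against 744 CPM in NTT), and its part in these values was not tested. Zap70, a kinase of lymphocytes, had 1 UMI in NTT cDC2 and 0 in RTT.

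Of 17 listed ligand genes, 12 were measured. In cDC2, 2 of 8 tested were at least 2-fold lower in RTT (8.59% of all tested genes; median -0.57 against 0.06). In NK_cells it was 1 of 8 (13.2% of all genes; median -0.54 against -0.11). Over all cells, 6 of 12 were lower (14.2% of all genes) and 1 was higher (10.5%), with a median of -0.75 against 0.06. In cDC2, B2m, the light chain of MHC class I, stood at 3768 and 1577 CPM (-1.26), H2-D1 at 3192 and 2014 CPM (-0.66) and H2-K1 at 2582 and 1494 CPM (-0.79). H2-T23, the Qa-1 ligand of CD94 and NKG2A, stood at 384 CPM in NTT and 83.3 CPM in RTT over all cells, and at 512 and 179 CPM in cDC2 (-1.52, -1.69 to -1.35). The NKG2D ligand genes were sparse in leukocytes, with Raet1d at 16.5 and 16.4 CPM, Raet1e at 4.07 and 3.40 CPM, and Ulbp1 (MULT1) at 5.55 and 8.07 CPM over all cells. The 1 higher ligand gene was H60b, also a ligand of NKG2D, with 2 UMIs in NTT and 22 in RTT (2.27). Tumour cells were not sorted, so their ligand levels were not measured here.

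Among 16 cytokine and cytokine receptor genes of NK activation, 4 of 13 tested were at least 2-fold lower in RTT NK_cells (13.2% of all genes) and 1 was higher (5.25%), with a median of -0.80 against -0.11 over all genes. Il2rb, a receptor chain for the interleukin Il15, stood at 1052 and 418 CPM (-1.33), Ccl4 at 1806 and 898 CPM (-1.01), Ccl3 at 1022 and 586 CPM (-0.80), Ifng at 571 and 355 CPM (-0.69) and Ccl5 at 1038 and 1527 CPM (0.56). The higher one was Xcl1, a chemokine that attracts cDC1, at 293 and 960 CPM. Over all cells 14 of 16 were lower (14.2% of all genes), with a median of -1.88 against 0.06. Il15, which maintains NK cells, stood at 30.4 CPM in NTT and 9.84 CPM in RTT over all cells, and in Infl_Mono, which held more of its UMIs than any other population, at 86.8 and 57.7 CPM (-0.59, -1.15 to -0.07).

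Another 15 genes of the matrix carried Klr symbols, of which 11 had at least 50 UMIs. Klrg1, Klra3, Klra4, Klra7 and Klra8 were led by NK_cells, the 4 Klra genes with log2 differences in them of -2.49, -4.01, -1.67 and -1.85 in RTT against NTT. Klrg1, an inhibitory receptor of terminally differentiated lymphocytes, stood there at 70.8 and 108 CPM (0.61, 0.04 to 1.16). Klrb1b, Klra2 and Klra17 were abundant in myeloid cells, with 6897, 4769 and 590 UMIs. Klrg2 had 96 UMIs, 24 of them in TAM_C1q. Klrb1b stood at 450.2 and 273 CPM in cDC2 (-0.72, -0.87 to -0.57). Klrb1f went in opposite directions, from 61.8 to 5.42 CPM in NK_cells (82 and 2 UMIs; -3.51, -6.58 to -1.61) and from 6.45 to 50.4 CPM in cDC2 (11 and 129 UMIs; 2.97, 2.08 to 4.01). In NTT, 70 of the 82 NK_cells UMIs of Klrb1f came from the 25 cells without Cd3. Of related lectins in the same group, Clec12a (8829 UMIs), Clec2d (2196), Clec2i (527) and Clec2g (190) were led by Ctsk_Macro, TAM_C1q, cDC2 and Monocyte_1. Ncr1 (124 UMIs) was led by NK_cells, and another 6 genes had under 50 UMIs. The leading population holds most of a gene's UMIs, so a large one can lead at a low CPM. Clec2d had 395 UMIs in TAM_C1q, yet stood at 77.6 CPM in NTT NK_cells, 113 CPM in RTT DC3 and 25.9 CPM over all RTT cells.

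Across 25 columns of populations and libraries, the genes whose log2 levels most resembled a member were listed, as a description. For Klrd1 these were Acap1 (Pearson r 0.92), Pkp3 (0.92) and P2ry10 (0.91), and for Klrk1 Pkp3 (0.93), Dpp4 (0.89) and Rab8a (0.88). For Klri2 they were Atp1b1 (0.89), Acap1 (0.84) and Pkp3 (0.82). Klrc1 resembled Nrgn (0.99), Trbc1 (0.99) and Gzmf (0.99), Klrb1c resembled Tox, Gzmf and Themis (1.00 each), and Klre1 resembled Ptprcap, Cd8a and Klk8 (0.97 each). Among the members themselves, r was 0.87 for Klrd1 with Klri2 and 0.98 for Klrb1c with Klrc1, but 0.62 for Klrd1 with Klrc1. The columns share libraries, and they differ in depth and number of cells. Klrb1c had 90 and 13 UMIs in the NTT and RTT columns of NK_cells and at most 3 in any other. Its r values, also that with Klrc1, therefore rest almost wholly on those 2 columns and do not say which genes share cells. Of the 90 NTT UMIs, 81 fell in the NK_cells without a Cd3 UMI.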

How the data were processed

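Matrices were made by the authors with Cell Ranger 6.1.1 against mm10. The deposited counts are raw UMI counts per gene and cell, not normalised, for genes that the authors found in all of several experiments. The authors' population names were used as deposited, without new clustering, and samples were grouped by the line named in the labels (1 library each). UMIs were summed per population and library and divided by all UMIs of those cells. Ratios carry exact 95% intervals from the pair of counts, levels Poisson intervals, shares Clopper-Pearson intervals and differences of shares Newcombe intervals. A gene was tested if the columns compared held at least 20 of its UMIs, and called at 2-fold or more. For a ratio, a count of 0 was set to 3 UMIs, which is a convention and not a 95% limit. Likeness used log2(CPM + 10), populations with at least 20 cells and genes with at least 200 UMIs. The scripts were tested on simulated data.

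The members, gene lists and alternatives were chosen with earlier results of these data known. Named were the 6 members, other Klr genes with at least 50 UMIs, up to 5 genes per list by UMIs and the 3 genes most like each member. Zap70, Xcl1, Il15, Raet1d, Raet1e, Ulbp1, H60b and the single markers were named after their values were seen. Doublet calling by Scrublet marked 3 cells in each library (0.101% and 0.062%) and was taken not to have worked, so doublets were not removed. The authors' stated day for such experiments differs from the record, whose day 12 is used. Python 3.11.15, numpy 2.4.6, scipy 1.17.1, pandas 2.3.3, scanpy 1.11.5, matplotlib 3.10.9, edgeR 4.0.16 (TMM) and DESeq2 1.42.0 (size factors only) were used.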

Additional observations from a re-analysis of the deposited data

Results flagged for a closer look

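Klrd1 was higher in RTT in TAM_Spp1 (log2 difference 1.91) and lower in 4 other populations (NK_cells, cDC2, DC3 and cDC1), with intervals on opposite sides of 0. At equal depth the share of TAM_Spp1 cells with Klrd1 differed by 0.80 percentage points (-1.99 to 2.30), an interval that includes 0. The difference between populations was not tested. Klrk1 in NK_cells against cDC2 lay below 0 in NTT (-0.23) and above 0 in RTT (0.74), and this difference between libraries was not tested either.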

How the results depend on the processing

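No paired analysis was possible because each group held 1 library. The number of members at least 2-fold higher in NK_cells than cDC2 was 3 in NTT and became 5 with NK_cells without Cd3 UMIs only; in RTT it was 2 and became 1 after thinning to 2000 UMIs, the cause of which was not tested. The number lower in RTT cDC2 was 2 and became 4 under TMM scaling, under DESeq2 size factors and without cDC2 carrying a UMI of Siglech, Ccr9 or Ly6d (added after seeing the data). Counts of members lower in RTT NK_cells and over all cells stayed within 1.5 times of 4 and 6 under every alternative run. No share over all genes is given for the alternatives, so nothing is read from these counts. Among single genes, 10 of 248 values changed sign, and 50 lay outside the interval of the reported value without reversing one that excluded 0. Of the 10, 5 were Klri2 in NK_cells over cDC2, whose reported intervals include 0: in NTT 0.12 as a mean of per-cell CPM, 0.030 in cells with at least 1500 genes, 0.28 against cDC2 with type 2 genes and 2.27 with NK_cells without Cd3 UMIs only, and in RTT 1.13 with the latter. In NK_cells over cDC2, Klrk1 was 0.11 in NTT as a mean of per-cell CPM and -0.060 in RTT after thinning. With NK_cells without Cd3 UMIs only, Klrd1 was 0.37 in NTT and 0.32 in RTT, and Klrk1 was 1.40 in NTT.

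Shares depend on depth. In NTT cDC2, the share with Klrd1 was 79.2% without thinning and 57.3% at 1000 UMIs, and with Klrk1 77.1% and 39.8%. In RTT cDC2 it was 85.0% and 51.8% for Klrd1, and 40.7% and 10.7% for Klrk1. In NK_cells it was 51.7% at 1000 UMIs for Klrd1 in NTT, 60.1% without thinning and 34.8% at 1000 UMIs for Klrk1 in NTT, and 11.8% at 1000 UMIs for Klrk1 in RTT. Of the 18 genes most like a member, 10 were kept with a pseudocount of 1 CPM, the cause of which was not tested. The Scrublet alternatives were not run, since it called too few cells. The 51 RTT NK_cells limit every RTT value of that label.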
